A study of Homo sapiens with 18 samples.

Results

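The transcripts that encode the proteins of the cytosolic ribosome were followed in 3 human lymphoma lines given an inhibitor of BCL6 or its vehicle. The genes were taken by symbol: RPL and a number with an optional A, RPLP0, RPLP1 and RPLP2, RPS and a number with an optional A or X, and RPSA. The rule found 77 of the 23250 genes listed, 46 of the large subunit (RPL and RPLP) and 31 of the small subunit (RPS and RPSA). It uses names only and no measured value.

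A ribosome is built from ribosomal RNA and a set of these proteins, so their genes are among the most highly expressed in a dividing cell and are needed in matched amounts. Their mRNAs typically begin with a C and a run of pyrimidines, the 5' terminal oligopyrimidine or TOP motif, through which translation is adjusted to nutrient and growth signals by mTOR and LARP1. The genes also have many processed pseudogenes, copies of the mRNA elsewhere in the genome, so that short reads of a ribosomal protein mRNA can match several places.

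The libraries came from SUDHL6, Farage and SUDHL4, established lines of diffuse large B cell lymphoma, a tumour of B cells. In each line 3 libraries were from cells given 79-6.1085 at 10 µM for 12 h and 3 from cells given DMSO for 12 h, 6 groups and 18 libraries in all. The compound inhibits BCL6, a transcriptional repressor of germinal centre B cells, and the libraries ask how transcript levels shift after its inhibition. The labels give no genotype or age of the cells and no promoter or transgene. They do not say whether replicates came from cultures grown apart. The p-values therefore reflect only how much these libraries vary, and that variation may be technical.

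The start sites show the feature that these genes share and that the choice of genes did not use. RefSeq promoters on GRCh38.p14 matched 62 of the 77 genes by symbol, with 77 start sites. Shown are 10 bases before and 20 from the start, on the gene's strand, for genes that the results below return to. Capitals mark the run of C and T that begins at the start.
RPLP0, chr12:120201092-120201121, - strand: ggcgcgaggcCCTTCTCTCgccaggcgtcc
RPL11, chr1:23691796-23691825, + strand: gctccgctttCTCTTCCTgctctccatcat
RPL28, chr19:55385922-55385951, + strand: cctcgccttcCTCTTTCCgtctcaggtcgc
RPL39, chrX:119791611-119791640, - strand: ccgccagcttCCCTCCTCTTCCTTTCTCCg
RPL35A, chr3:197950180-197950209, + strand: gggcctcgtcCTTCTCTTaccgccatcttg
RPS6, chr9:19380217-19380246, - strand: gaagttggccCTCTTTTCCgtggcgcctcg
RPS19, chr19:41860245-41860274, + strand: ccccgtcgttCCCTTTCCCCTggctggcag
RPS27, chr1:153990752-153990781, + strand: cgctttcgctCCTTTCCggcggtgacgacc
RPL17, chr18:49492446-49492475, - strand: ttccctaagcagcctgaggtgagtgtttct
RPS26, chr12:56041908-56041937, + strand: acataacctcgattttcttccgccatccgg
RPL9, chr4:39458903-39458932, - strand: taatgacgacagacgttctttctttgctgc
RPL17, RPS26 and RPL9 have no such run at the annotated start. A start at C followed by a run of at least 5 C or T in all was found at 46 of the 62 genes (74.2%), against 1404 of all 27305 genes in the promoter table (5.14%). The letters CTTTC stood within these 30 bases on the gene's strand in 53.2% of the ribosomal protein genes, against 5.29% of all genes, and on the opposite strand in 3.23%, against 4% of all. The longer CTCTTTCC, which contains CTTTC, was found on the gene's strand in 14.5%, against 0.256% of all, and on the opposite strand in 0, against 0.179% of all. The 45 tested genes with the C and pyrimidine run had a median log2 fold change to the inhibitor of −0.04 in the mean of the lines, and the 16 with a start site but no such run had −0.09.

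Levels are in CPM, each gene's reads scaled to a common library total, and levels of different genes are compared per kilobase of coding sequence. RPS6, the small subunit protein phosphorylated by S6 kinases, had the highest level, 4230 CPM per kilobase over the 18 libraries. It was followed by RPL37A at 4178 and RPS19 at 4072 CPM per kilobase. In CPM, the genes of lowest level were those whose coding sequence is nearly all present in transcripts of other genes. Of each coding sequence, the share of 50-base stretches also present in transcripts of other genes was counted, on either strand, in GENCODE release 29. That share ran over the 77 genes from 0 in RPL38 to 100% in RPL17, RPL21, RPL36A, RPL39, RPL41, RPS10, RPS26, RPS27, RPS28 and RPS3A. All 12 genes with a share of at least 99% averaged under 60 CPM, at a median of 10.7 CPM, against a median of 395 CPM for the 28 genes with 50 to 99% and 1000 CPM for the 37 with under 50%. The other genes counted were pseudogenes or any further annotated gene. Pseudogenes alone held 90.1% of the stretches of RPL17 and 100% of those of RPL36A and RPS10. The joined names RPL17-C18ORF32, RPL36A-HNRNPH2 and RPS10-NUDT3 were also listed, at 0 in all 18 libraries. The part of either kind in the low levels was not tested. Reads of these 12 genes and of the genes that share their sequence cannot be told apart with certainty. How reads with several matches were counted is not given in the sources used here, so the values of these 12 genes below are uncertain.

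The first coding bases show the contrast. Capitals mark bases inside a 50-base stretch that another gene's transcript also holds.
RPL17, coding bases 1 to 90: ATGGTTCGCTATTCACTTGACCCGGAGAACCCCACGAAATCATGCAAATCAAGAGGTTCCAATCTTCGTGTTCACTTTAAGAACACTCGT
RPL21, coding bases 1 to 90: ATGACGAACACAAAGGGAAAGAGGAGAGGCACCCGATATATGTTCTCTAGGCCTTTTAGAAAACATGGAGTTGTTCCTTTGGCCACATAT
RPS27, coding bases 1 to 90: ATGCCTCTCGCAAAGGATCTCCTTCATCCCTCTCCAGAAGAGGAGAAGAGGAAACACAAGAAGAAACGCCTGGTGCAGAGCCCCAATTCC
RPL35A, coding bases 1 to 90: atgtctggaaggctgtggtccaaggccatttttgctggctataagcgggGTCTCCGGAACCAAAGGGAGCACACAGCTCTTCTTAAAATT
RPS19, coding bases 1 to 90: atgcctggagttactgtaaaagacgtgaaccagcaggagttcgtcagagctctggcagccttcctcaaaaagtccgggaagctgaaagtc
RPL21, fully shared and with 66 annotated pseudogenes, was listed at 0 in 17 libraries and at 1 read, 0.0356 CPM, in treated SUDHL4 replicate 2. A count of 0 allows up to 3 reads, which were 0.095 to 0.362 CPM across the libraries. RPS19 and RPL35A, with shares of 2.07% and 1.07%, averaged 1771 and 1062 CPM. Of the 77 genes, 75 passed the filter of at least 1 CPM in at least 3 libraries and were tested.

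The listed genes held 6289956 to 25492726 reads per library. The B cell markers MS4A1, CD79A, CD79B, PAX5, CD22, BCL6 and MME were all at 1 CPM or more in every group's mean, and summed to 2317 to 3510 CPM in treated and 5488 to 5966 CPM in DMSO libraries of SUDHL6, 2149 to 2286 and 3524 to 3688 in Farage, and 4513 to 4590.0 and 6777 to 7281 in SUDHL4. Markers of T, myeloid, epithelial and erythroid cells summed to at most 2.85 CPM in any library, and HBB, EPCAM and KRT8 were at or near 0. The 3 myeloid markers CD14, LYZ and CSF1R summed to 1.51 to 2.41 CPM in treated and 0 to 0.529 CPM in DMSO libraries of SUDHL6, 1.98 to 2.35 and 0.520 to 0.709 in Farage, and 1.71 to 2.85 and 0.317 to 1.07 in SUDHL4. The higher treated sums came mainly from CD14, at 1.34 to 2.24 CPM in treated and 0 to 0.415 CPM in DMSO libraries of the 3 lines. LYZ was 0 in all SUDHL6 libraries. CSF1R had 0.163, 0.151 and 0.302 CPM in treated and 0.293, 0.355 and 0.398 CPM in DMSO Farage libraries. COL1A1 and COL1A2, of fibroblasts, summed to 0.945 to 1.31 CPM in treated and 5.43 to 7.27 CPM in DMSO Farage libraries and to under 1 CPM elsewhere; the part of these markers in the results was not tested. Replicate 3 of SUDHL6 stood apart in both groups. It had 6289956 listed reads with the inhibitor and 7359083 with DMSO. Of the 75 tested genes, 64 with the inhibitor and 61 with DMSO were higher in it than the mean of replicates 1 and 2. The median log2 differences were 0.37 and 0.32, against 0.002 and −0.05 for all genes tested. Across the 75 genes the difference had a Spearman correlation of 0.35 and 0.27 with the share of common coding sequence. Some genes with such sequence were much higher, though RPL17 and RPL39 were not.

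RPL7, with 61 annotated pseudogenes, had 4.13, 3.20 and 105 CPM in the treated SUDHL6 libraries, against 4.05, 3.78 and 119 CPM in the DMSO libraries, and 0.887 to 1.995 CPM in all 12 libraries of the other lines. RPS3A had 33.4, 24.7 and 154 CPM in treated and 37.4, 29.1 and 155 CPM in DMSO libraries of SUDHL6. In both genes replicate 3 was the high library of each group. RPL7, RPS10, RPS2, RPS27A, RPS29, RPS3A and RPS7 were over 1 log2 unit above the mean of the partners in replicate 3 of both groups, and their shares of common sequence were 58.0 to 100%. RPL34, with a share of 34.4%, was 1.09 above with the inhibitor and 0.93 above with DMSO. In replicate 3, 12% of the 75 genes lay at least 1 log2 unit above the mean of replicates 1 and 2 with the inhibitor, against 2.29% of all genes tested, and 9.33% with DMSO, against 1.19% of all. Results of SUDHL6 are therefore also given without both replicate 3 libraries.

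**Figure D1:**
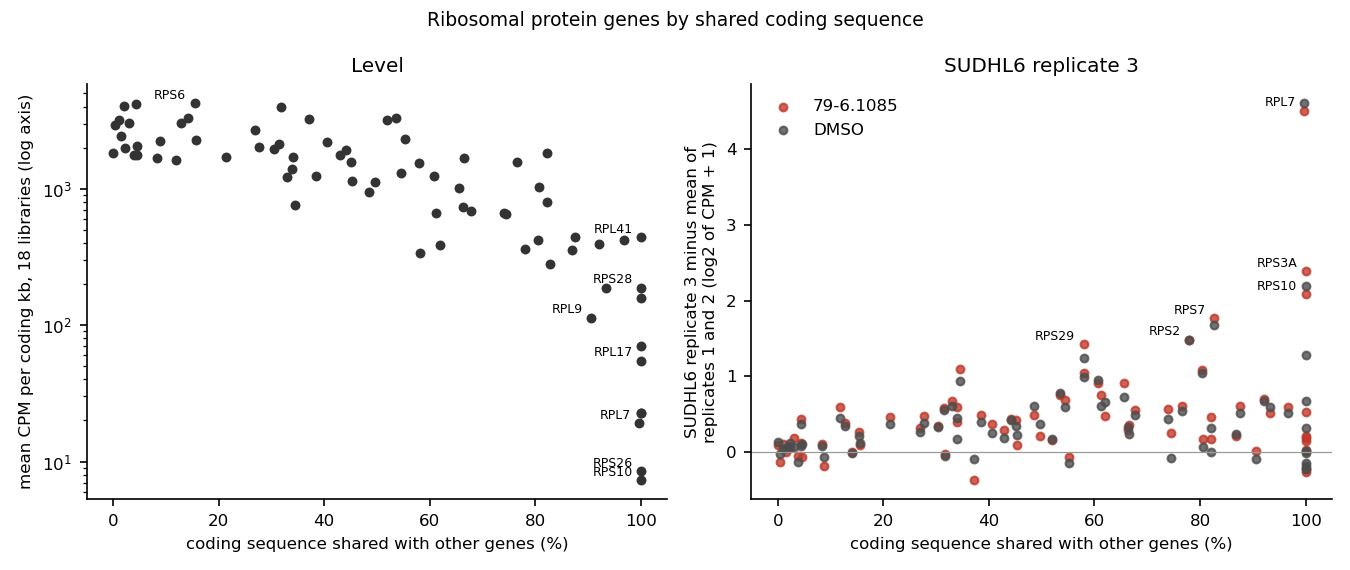
Left, mean level of 75 ribosomal protein genes over 18 libraries in CPM per coding kilobase (log axis) against the share of 50-base coding stretches found in other genes; RPL21, listed at or near 0, is left out. Right, log2(CPM + 1) of SUDHL6 replicate 3 minus the mean of replicates 1 and 2 for the same genes, with 79-6.1085 in red and DMSO in grey. Genes near 100% have the lowest levels, and RPL7 stands over 4 log2 units above its partners in both groups.

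Together the 77 genes took a share of the library that differed more between lines than between treatments. Their CPM summed to 55074, 42789 and 60339 in the treated SUDHL6 libraries, against 54374, 45494 and 61058 in the DMSO libraries. The sums followed the replicate number: replicate 2 was lowest and replicate 3 highest in both groups. In Farage they were 32989, 33174 and 35818 with the inhibitor, against 34352, 39187 and 35680.5 with DMSO. In SUDHL4 they were 74056, 79133 and 70370.2 with the inhibitor, against 72929.9, 71932 and 71118 with DMSO. With CPM as deposited, treated and DMSO sums overlapped in every line, and the sums of the 3 lines did not overlap. After median-of-ratios scaling all treated sums lay above all DMSO sums in Farage (37130 to 38980 against 32650 to 36280). The same held in SUDHL4 (81030 to 93350 against 67800 to 68540), while SUDHL6 overlapped (40220 to 59040 against 39320 to 55060). As a share of the listed reads the genes held 6.999% ± 1.18 in treated and 6.87% ± 0.956 in DMSO SUDHL6 cells, 4.44% ± 0.118 and 4.59% ± 0.253 in Farage, and 9.44% ± 0.423 and 8.97% ± 0.0684 in SUDHL4 (SD, n = 3 each). In bulk RNA, fewer cells of a kind and less RNA per cell cannot be told apart.

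**Figure D2:**
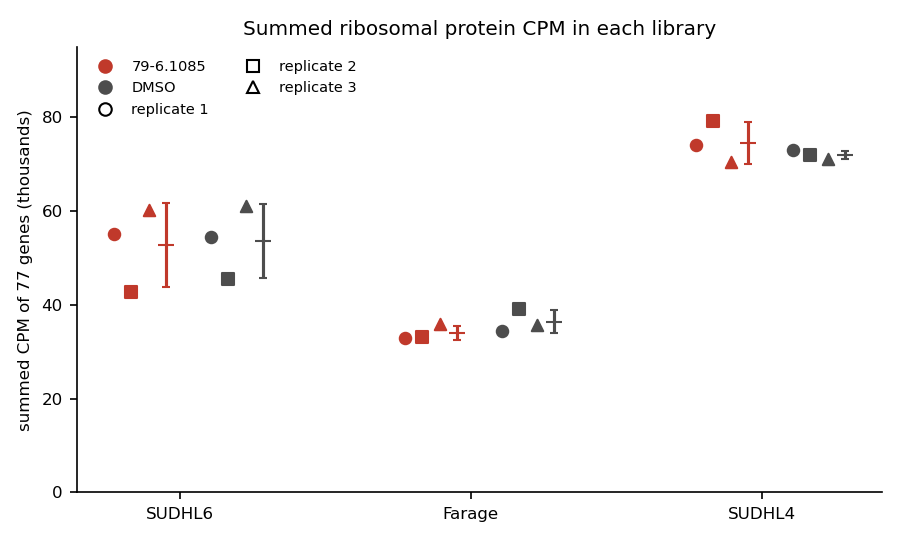
Summed CPM (axis in units of 1000 CPM) of the 77 ribosomal protein genes in each of 18 libraries, with 79-6.1085 in red left of DMSO in grey; marker shape gives the replicate number, and bars the mean and SD of 3 libraries. Farage libraries lie between 32989 and 39187 CPM, below all SUDHL6 libraries, and SUDHL4 libraries lie at or above 70370.2.

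With CPM as deposited and no term for the replicate number, the inhibitor moved few ribosomal protein transcripts past the test. In SUDHL6, 3 of the 75 genes were called higher and 7 lower, against 26.8% and 41.3% of all 12769 genes tested. In Farage 1 was called higher and 6 lower, against 25.4% and 46.5% of all genes. In SUDHL4 5 were called higher and 5 lower, against 24.3% and 46.2%. Averaged over the lines, 5 were called higher and 12 lower, against 30.1% and 53.8% (83.9% in either direction). Calls are from limma on log2(CPM + 1) with Benjamini-Hochberg adjustment over all genes tested and a threshold of 0.05 for the adjusted p. The spread of each gene was fitted over all 3 lines together, so scatter in 1 line enters the SE of the others. In either direction the calls were 13.3%, 9.33% and 13.3% of the 75 genes in SUDHL6, Farage and SUDHL4, while 68.1%, 71.9% and 70.5% of all genes were called. On this scaling the changes were also small: 80.0%, 82.7% and 90.7% of the genes lay within 0.25 log2 units of 0 in SUDHL6, Farage and SUDHL4, against 27.9%, 24.8% and 25.9% of all genes, and none of the 75 reached a change of 1 on the log2(CPM + 1) scale, which understates the change of low genes. After median-of-ratios scaling 70.67%, 77.33% and 22.67% lay within 0.25 log2 units of 0 in SUDHL6, Farage and SUDHL4. The number of calls depended on the fit. A term for the replicate number, which pairs the SUDHL6 libraries, gave 5 higher and 22 lower in SUDHL6, against 28.2% and 43.4% of all genes. Fits of single lines gave 2 and 21 in Farage, against 29.9% and 52.7%, and 11 and 10 in SUDHL4, against 27.5% and 50.2%. In SUDHL6 alone they gave 0 and 2, against 20.3% and 29.9%.

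The direction depended on how the libraries were scaled. With CPM as deposited the median log2 fold change of the 75 genes in the mean of the lines was −0.05 and that of all genes −0.24. Median-of-ratios scaling moved these medians to 0.19 and −0.05, and 36 of the 75 genes were then called higher and 3 lower, against 39.4% and 44.4% of all genes. Relative to the median gene the ribosomal protein genes were 0.19 log2 units higher with deposited CPM and 0.24 higher after median-of-ratios scaling. By line this difference was 0.07 in SUDHL6, 0.12 in Farage and 0.24 in SUDHL4 with deposited CPM, and 0.12, 0.16 and 0.33 after the other scaling. In SUDHL6 it turned sign with single libraries left out, at −0.07 without DMSO replicate 2 and −0.06 without treated replicate 3, against 0.28 without treated replicate 2, and 27 to 68 of the 75 genes then lay above the median gene. With no filter on low genes, which brings the median of all genes close to 0, it was −0.05 in SUDHL6, −0.08 in Farage, 0.04 in SUDHL4 and −0.03 in the mean. Above the median gene lay 46 of the 75 genes in SUDHL6, 63 in Farage and 68 in SUDHL4 with deposited CPM, and 53, 66 and 71 after median-of-ratios scaling. Under 5 ways of scaling or counting (deposited CPM, CPM rescaled to the listed genes, median-of-ratios scaling, edgeR and DESeq2 on recovered reads), 8 genes were called with the same sign in the mean of the lines: RPS19, RPL28, RPS27, RPL39 and RPS28 as higher and RPL17, RPL36A and RPS26 as lower. How many of all genes met this requirement was not counted, so whether 8 is few or many was not tested.

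**Figure D3:**
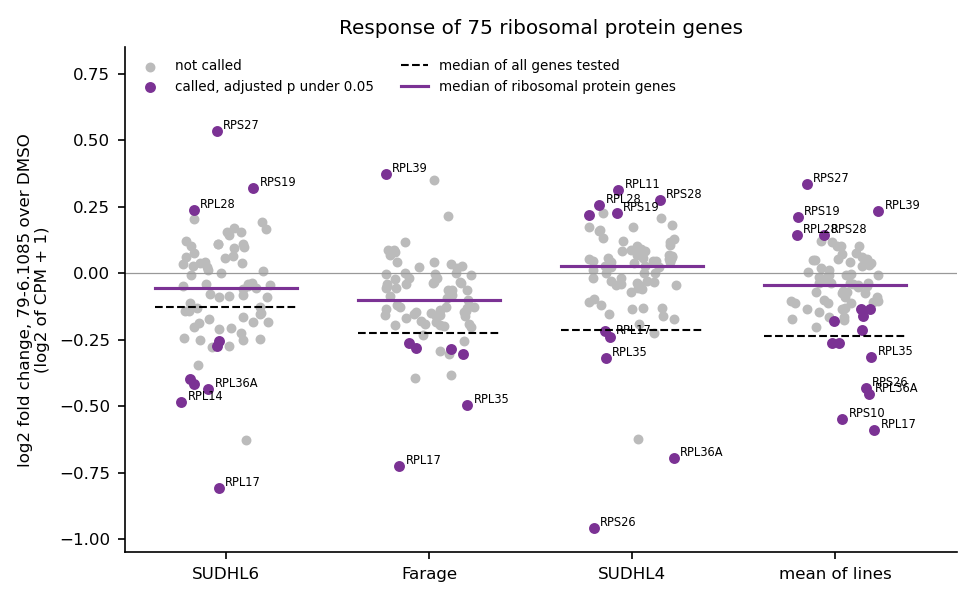
Log2 fold change of 79-6.1085 over DMSO, on the log2(CPM + 1) scale, of 75 ribosomal protein genes in each line and in the mean of the lines; purple points have an adjusted p under 0.05, the purple line is their median and the dashed line the median of all 12769 genes tested. Most points lie near 0 and above the dashed line, with RPL17, RPS26 and RPL36A as the lowest called points.

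RPS19, a small subunit protein whose gene is the one most often mutated in Diamond-Blackfan anaemia, had 2623, 2209 and 2529 CPM in treated SUDHL6 libraries, against 2127, 1758 and 2016 CPM in DMSO libraries. In SUDHL4 it had 1603, 1719 and 1531 CPM with the inhibitor, against 1395, 1369 and 1382 CPM with DMSO. All treated libraries lay above all DMSO libraries in both lines. In Farage it had 1627, 1602 and 1728 CPM in treated, against 1530, 1649 and 1491 CPM in DMSO libraries, which overlapped. Its log2 fold change was 0.32 ± 0.09 in SUDHL6 (SE, adjusted p = 0.00436) and 0.23 ± 0.09 in SUDHL4 (adjusted p = 0.032), and 0.21 ± 0.05 in the mean of the lines (adjusted p = 0.00116). Leaving out SUDHL4 treated replicate 1 or 2 or any of its DMSO replicates ended the call in SUDHL4, with log2 fold changes of 0.18 to 0.23, as did testing all genes with no filter, and the call in SUDHL6 was lost in a fit of that line alone.

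RPL28, a large subunit protein with no annotated pseudogene, had 1257, 1298 and 1120 CPM in treated SUDHL6 libraries, against 993, 1119 and 1006 CPM in DMSO libraries. In SUDHL4 it had 1150, 1294 and 1195 CPM in treated, against 1026, 994 and 1023 CPM in DMSO libraries. The groups did not overlap in either line, though by 1 CPM only in SUDHL6. In Farage it had 494, 476 and 530 CPM in treated and 531, 541 and 495 CPM in DMSO libraries, an overlap with lower treated values. The log2 fold changes were 0.24 ± 0.08 in SUDHL6 (adjusted p = 0.0132) and 0.26 ± 0.08 in SUDHL4 (adjusted p = 0.00758). Without SUDHL6 DMSO replicate 1, or in a fit of SUDHL6 alone, the call in that line was lost. RPS19 and RPL28 share 2.07% and 8.84% of their coding stretches with other genes, and the other 6 of the 8 genes share all of theirs.

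RPS27, a small subunit protein, had 7.74, 5.55 and 9.91 CPM in treated SUDHL6 libraries, against 4.39, 3.74 and 7.07 CPM in DMSO libraries. Treated values were higher at each replicate number, and the groups overlapped. The log2 fold change in SUDHL6 was 0.53 ± 0.18 (adjusted p = 0.0151), and it was not called without SUDHL6 DMSO replicate 1, DMSO replicate 2 or treated replicate 3, at 0.36 to 0.47. RPL39, a small protein of the peptide exit tunnel, had 19.6, 20.4 and 20.5 CPM in treated Farage libraries, against 13.01, 16.9 and 16.4 CPM in DMSO libraries. All treated values were higher (log2 fold change 0.37 ± 0.13, adjusted p = 0.0147), but the call rested on DMSO replicate 1, without which the change was 0.26. RPS28, a small subunit protein, had 57.5, 64.1 and 54.4 CPM in treated SUDHL4 libraries, against 48.0, 50 and 46.6 CPM in DMSO libraries. These did not overlap (0.28 ± 0.09, adjusted p = 0.0139), and the call was lost without treated replicate 2, at 0.21.

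RPL17, on the rim of the peptide exit tunnel, fell in SUDHL6 and Farage. It had 27.3, 26.1 and 21.9 CPM in treated SUDHL6 libraries, against 46.8, 45.3 and 41.2 CPM in DMSO libraries. In Farage it had 7.69, 6.89 and 6.91 CPM in treated, against 13.4, 12.3 and 11.9 CPM in DMSO libraries. The groups were far apart in both lines, and the log2 fold changes were −0.81 ± 0.09 (adjusted p = 8.5e-07) in SUDHL6 and −0.73 ± 0.09 (adjusted p = 2.19e-06) in Farage. In SUDHL4 it had 41.1, 44.9 and 41.3 CPM in treated, against 52.1, 49.3 and 49.2 CPM in DMSO libraries, a change of −0.24 ± 0.09 with deposited CPM (adjusted p = 0.027) that turned to 0.06 after median-of-ratios scaling.

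RPL36A, a large subunit protein, had 4.39, 4.13 and 3.66 CPM in treated SUDHL4 libraries, against 6.75, 7.51 and 7.27 CPM in DMSO libraries. In SUDHL6 it had 8.35, 8.08 and 8.34 CPM in treated, against 13.3, 11.2 and 10.3 CPM in DMSO libraries. Treated values were below all DMSO values in both lines, with log2 fold changes of −0.69 ± 0.12 in SUDHL4 (adjusted p = 4.95e-05) and −0.44 ± 0.12 in SUDHL6 (adjusted p = 0.00323). The SUDHL6 call was lost after median-of-ratios scaling (−0.27) and in a fit of that line alone. In Farage RPL36A had 5.995, 5.988 and 4.53 CPM in treated and 6.60, 7.06 and 6.15 CPM in DMSO libraries and was not called.

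RPS26, near the mRNA exit channel of the small subunit, had 2.03, 2.35 and 2.31 CPM in treated SUDHL4 libraries, against 5.04, 5.51 and 5.29 CPM in DMSO libraries. Every treated SUDHL4 value was under every DMSO value (log2 fold change −0.96 ± 0.13, adjusted p = 4.63e-06), and on this scale the change of so low a gene is understated. In the other lines it was not called: it had 2.24, 2.89 and 3.02 CPM in treated and 2.93, 3.44 and 4.18 CPM in DMSO SUDHL6 libraries, and 2.25, 1.81 and 1.48 CPM in treated and 1.72, 1.84 and 2.32 CPM in DMSO Farage libraries. RPS10, of the small subunit head, had 2.93, 2.53 and 14.9 CPM in treated SUDHL6 libraries, against 6.05, 5.81 and 15.9 CPM in DMSO libraries. Replicate 3 was high in both groups, and within each replicate number the treated value was lower. RPS10 was called lower in the mean of the lines (−0.55 ± 0.24, adjusted p = 0.0472), a call lost after leaving out any of 15 single libraries. Without both SUDHL6 replicate 3 libraries its change in SUDHL6 was −0.90 ± 0.14 (adjusted p = 3.05e-05).

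**Figure D4:**
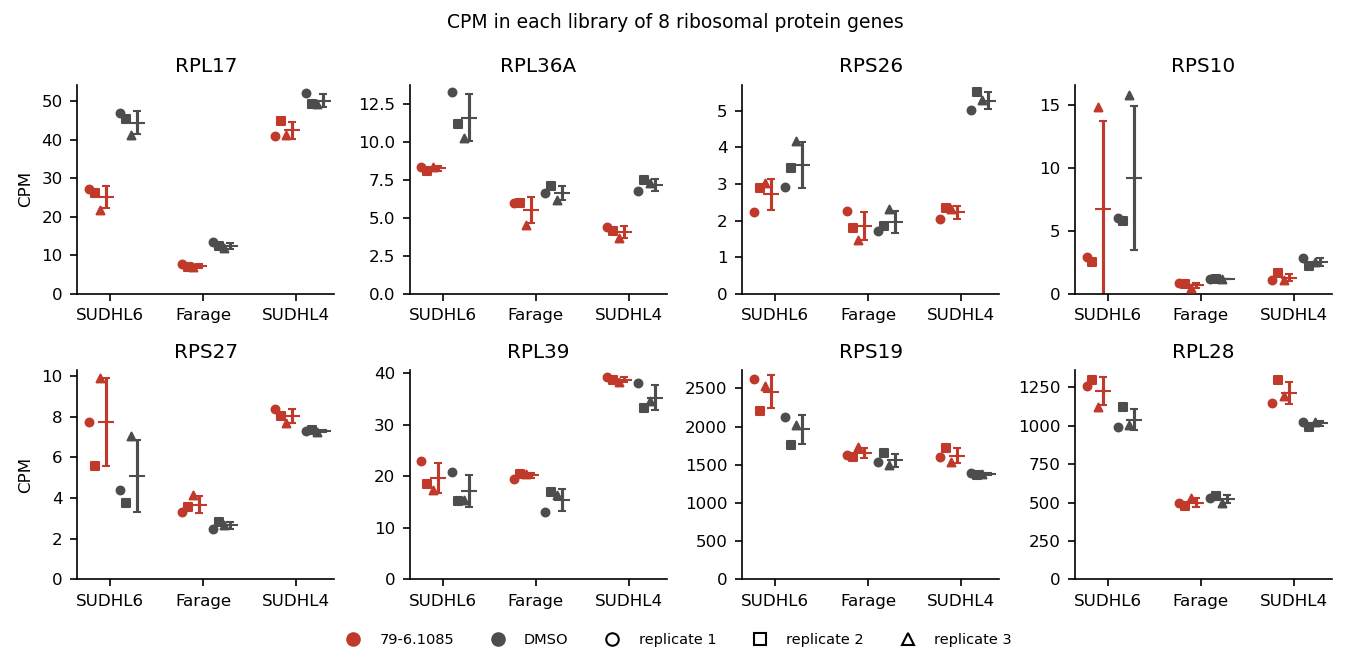
CPM in each library of 8 ribosomal protein genes that were called in the mean of the lines, with 79-6.1085 in red left of DMSO in grey; marker shape gives the replicate number, and bars the mean and SD of 3 libraries. RPL17 is lower in all treated SUDHL6 and Farage libraries, RPS26 in all treated SUDHL4 libraries, and RPS19 and RPL28 are higher in all treated SUDHL6 and SUDHL4 libraries.

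The other genes called lower in the mean of the lines were so with deposited CPM but not after median-of-ratios scaling. RPL35, on the rim of the exit tunnel, had 236, 221 and 284 CPM in treated Farage libraries, against 306, 391 and 350 CPM in DMSO libraries. Treated values were below all DMSO values (−0.50 ± 0.13, adjusted p = 0.00248), and in the mean of the lines the change was −0.31 ± 0.07 with deposited CPM and −0.07 after median-of-ratios scaling. In SUDHL4 it was called lower as well (−0.32 ± 0.13, adjusted p = 0.0349), but its sign turned with edgeR. RPL8, a large subunit protein, was called lower in Farage with deposited CPM (−0.30 ± 0.09, adjusted p = 0.00652). RPL41 changed by −0.26 ± 0.05 in the mean (adjusted p = 0.000118) with deposited CPM and by −0.03 after median-of-ratios scaling. RPL15, a large subunit protein, had a change of −0.26 ± 0.07 in the mean (adjusted p = 0.00142) and −0.02 after that scaling. RPL3, RPL6, RPL8, RPS24 and RPS25 had changes of −0.13 to −0.21 in the mean, all of which turned positive after median-of-ratios scaling, and are named as the rest of the 12.

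The always reported genes of defined roles showed small changes. Of the ribosomal stalk, which recruits the elongation factors, RPLP0 had log2 fold changes of −0.17 ± 0.22 in SUDHL6, 0.00 ± 0.22 in Farage and 0.04 ± 0.22 in SUDHL4, none called. This SE was shared by the lines, though the lines differed in spread. The SD of RPLP0 in treated and DMSO libraries was 413 and 358 CPM in SUDHL6, 58.2 and 80.6 in Farage and 51.9 and 17.05 in SUDHL4. RPLP1 had 884, 777 and 989 CPM in treated Farage libraries, against 1142, 1102 and 970 CPM in DMSO libraries, which overlapped through DMSO replicate 3. It was called lower there (−0.28 ± 0.12, adjusted p = 0.0386), a call lost without DMSO replicate 1 or 2 or treated replicate 1 or 2 and after every other scaling. RPLP2 had 935, 1037 and 935 CPM in treated SUDHL4 libraries, against 841, 838 and 838 CPM in DMSO libraries, with no overlap and an adjusted p of 0.0548, and it was called under the 4 other scalings, at 0.23 to 0.53.

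RPL5 and RPL11 carry the 5S ribosomal RNA and bind MDM2, the regulator of p53, when ribosome assembly fails. RPL11 had 2869, 2873 and 2675 CPM in treated SUDHL4 libraries, against 2208, 2155 and 2414 CPM in DMSO libraries. All treated values were higher (0.31 ± 0.12, adjusted p = 0.0239), and it was called there under all 5 scalings, but not without SUDHL4 DMSO replicate 1 or 2 or treated replicate 1 or 2. RPL5 had 725, 511 and 854 CPM in treated SUDHL6 libraries, against 894, 697 and 1040 CPM in DMSO libraries. The groups overlapped and each treated library was below the DMSO library of its number (−0.35 ± 0.15, adjusted p = 0.0548). RPL18, of the large subunit, was called higher in SUDHL4 (0.22 ± 0.09, adjusted p = 0.0385).

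RPSA, which also occurs as a laminin receptor, had changes of −0.17, −0.14 and −0.02 in SUDHL6, Farage and SUDHL4. RPS6 had −0.14, −0.12 and 0.05, and RPS27A, made as a fusion with ubiquitin, had −0.09, −0.15 and −0.07. None of the 3 was called in a line, at adjusted p-values of 0.282 to 0.941, though RPSA was called lower in SUDHL6 with a term for the replicate number (adjusted p = 0.0387). RPL41, the shortest with 75 coding bases, had 18.7, 15.8 and 19.9 CPM in treated SUDHL6 libraries, against 25.3, 23.0 and 24.2 CPM in DMSO libraries. The groups did not overlap (−0.40 ± 0.09, adjusted p = 0.000603). In SUDHL4 RPL41 was called lower with deposited CPM (−0.22 ± 0.09, adjusted p = 0.0314) and its change was 0.08 after median-of-ratios scaling.

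By role, the 14 tested genes mutated in Diamond-Blackfan anaemia had, averaged over the lines, 3 calls higher and 4 lower, at a median of −0.08. The 7 proteins on the rim of the exit tunnel had 1 higher and 2 lower, at −0.05. The large subunit had 2 higher and 8 lower of 45, and the small subunit 3 higher and 4 lower of 30. Medians were −0.07 for the large and −0.03 for the small subunit, beside −0.24 for all genes tested, of which 30.1% were called higher and 53.8% lower.

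In SUDHL6 same-numbered libraries deviated together, so a fit with a term for each replicate number is given beside the calls. It called 5 of the 75 genes higher and 22 lower with deposited CPM, against 28.2% and 43.4% of all genes. RPL5 (adjusted p = 0.000282), RPL12 (−0.25 ± 0.06, adjusted p = 0.0034), RPL7A (−0.27 ± 0.06, adjusted p = 0.00169) and RPL22 (−0.25 ± 0.06, adjusted p = 0.00208) were among those called lower with the replicate term but not without it, and RPL12, RPL7A and RPL22 are named here after their values were seen. RPL14, a large subunit protein with 218, 179 and 332 CPM in treated and 320, 256 and 436 CPM in DMSO libraries, was called in both (−0.49, adjusted p = 0.0256, and 2.93e-05 with the replicate term). RPL3 had 1506, 1009 and 1650 CPM in treated and 1887, 1487 and 2123 CPM in DMSO libraries and was also called in both (−0.42, adjusted p = 0.0224 and 0.000158). Without the replicate term neither was called after median-of-ratios scaling, at −0.31 for RPL14 and −0.24 for RPL3. Their groups overlapped although each treated library was below its partner. Without both replicate 3 libraries 4 genes were called higher and 11 lower in SUDHL6, against 26.2% and 42.6% of all genes.

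Without a replicate term, the responses of the lines differed for few genes. Between Farage and SUDHL4, 2 genes had a higher and 5 a lower response in Farage, against 19.7% and 17.7% of all genes. Between SUDHL6 and SUDHL4 there were 2 calls, RPS26 and RPL17, against 35% of all genes in either direction. Between Farage and SUDHL6 there was 1, RPL28, against 36.8% of all. With the replicate term 16, 12 and 5 genes differed in these pairs, and a fit of Farage and SUDHL4 alone gave 21. The shares of all genes that differed under these other fits are not given here, so these counts have no background beside them. RPS26 responded less in Farage and in SUDHL6 than in SUDHL4, where it was lower with the inhibitor, and RPL17 fell more in Farage and SUDHL6 than in SUDHL4.

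Between the lines themselves, ribosomal protein transcripts were lowest in Farage and highest in SUDHL4. In the DMSO libraries 3 of the 75 genes were called higher and 49 lower in Farage than in SUDHL6, against 33.8% and 37.5% of all genes. None was called higher and 62 lower in Farage than in SUDHL4, against 36% and 31.1%. In SUDHL6 against SUDHL4, 7 were called higher and 45 lower, against 38.5% and 30.1% (68.6% in either direction). These comparisons share DMSO libraries. The median log2 differences were −0.45, −1.01 and −0.44, beside −0.05, 0.04 and 0.08 for all genes tested. By group mean, 51 genes had the order SUDHL4, SUDHL6, Farage from high to low, 16 had SUDHL6, SUDHL4, Farage, 6 had SUDHL4, Farage, SUDHL6 and 2 had SUDHL6, Farage, SUDHL4.

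RPL9, a large subunit protein, departed from this order, with 53.7, 68.5 and 61.3 CPM in Farage, 15.6, 13.7 and 13.6 CPM in SUDHL6 and 132, 129 and 127 CPM in SUDHL4 DMSO libraries. No library of one line overlapped another line, and the log2 difference was 2.02 ± 0.10 for Farage minus SUDHL6 (adjusted p = 1.12e-11) and −3.09 ± 0.10 for SUDHL6 minus SUDHL4 (adjusted p = 8.11e-14). RPL22, a large subunit protein that also binds viral small RNAs, had 201, 206 and 195 CPM in Farage, 78.6, 62.1 and 99.7 CPM in SUDHL6 and 216, 211 and 223 CPM in SUDHL4. Farage was above SUDHL6 (1.34 ± 0.16, adjusted p = 1.05e-06), while the difference of Farage and SUDHL4 was −0.11 ± 0.16 (adjusted p = 0.56). RPL31, on the exit tunnel rim, was also called higher in Farage than in SUDHL6 (0.41 ± 0.13, adjusted p = 0.0101), a call lost without SUDHL6 DMSO replicate 2 or Farage DMSO replicate 2.

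RPL35A, a large subunit protein mutated in some patients with Diamond-Blackfan anaemia, set SUDHL4 apart. It had 469, 567 and 521 CPM in Farage, 569, 429 and 507 CPM in SUDHL6 and 2160, 2102 and 2163 CPM in SUDHL4. Farage and SUDHL6 overlapped, with a difference of 0.05 ± 0.11, and SUDHL4 was about 2 log2 units above each (Farage minus SUDHL4 −2.05 ± 0.11, adjusted p = 6.22e-11, and SUDHL6 minus SUDHL4 −2.10 ± 0.11, adjusted p = 7.84e-11). RPL41 was also highest in SUDHL4, with 19.5, 19.7 and 18.4 CPM in Farage, 25.3, 23.0 and 24.2 CPM in SUDHL6 and 65.4, 63.3 and 64.0 CPM in SUDHL4 (Farage minus SUDHL4 −1.69 ± 0.09). RPL34 was 1.80 ± 0.27 lower in SUDHL6 than in SUDHL4 (adjusted p = 1.7e-05) and RPL31 1.52 ± 0.13 lower (adjusted p = 2.5e-08).

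RPS18, a small subunit head protein, had 523, 601 and 562 CPM in Farage, 1816, 1408 and 2740 CPM in SUDHL6 and 1828, 1839 and 1877 CPM in SUDHL4. All Farage libraries were below all others (Farage minus SUDHL6 −1.77 ± 0.21, adjusted p = 1.22e-06, and Farage minus SUDHL4 −1.72 ± 0.21, adjusted p = 1.84e-06). RPL17 was likewise low in Farage, by −1.75 ± 0.09 against SUDHL6 and −1.92 ± 0.09 against SUDHL4. RPL7 and RPS10, high in SUDHL6 replicate 3, were lower in Farage than in SUDHL6 by −2.81 ± 1.08 (adjusted p = 0.0287) and −2.10 ± 0.42 (adjusted p = 0.000315). Without SUDHL6 DMSO replicate 3 the difference of RPL7 was −1.27 and no longer called, and it was not called when any single Farage DMSO library was left out.

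By group mean the stalk genes were highest in SUDHL6 rather than in SUDHL4. RPLP0 and RPLP2 had the order SUDHL6, SUDHL4, Farage, which 16 genes had in all. Among the stalk genes only RPLP1 had Farage above SUDHL4. RPLP2 had 654, 654 and 573 CPM in Farage, 1480, 1461 and 1433 CPM in SUDHL6 and 841, 838 and 838 CPM in SUDHL4, so that SUDHL6 was highest (SUDHL6 minus SUDHL4 0.80 ± 0.09, adjusted p = 9.16e-07). RPLP1 was also highest in SUDHL6 (0.57 ± 0.12 above SUDHL4, adjusted p = 0.000346), and Farage was 0.27 ± 0.12 above SUDHL4 (adjusted p = 0.0531). RPLP0 had differences of at most 0.30 between lines, none called. RPL36A was 0.62 ± 0.12 higher in SUDHL6 than in SUDHL4 (adjusted p = 0.000178). RPS19 was highest in SUDHL6 at 1967 ± 190 CPM, followed by Farage at 1556 ± 82.0 and SUDHL4 at 1382 ± 13.1 CPM (SD, n = 3 each).

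**Figure D5:**
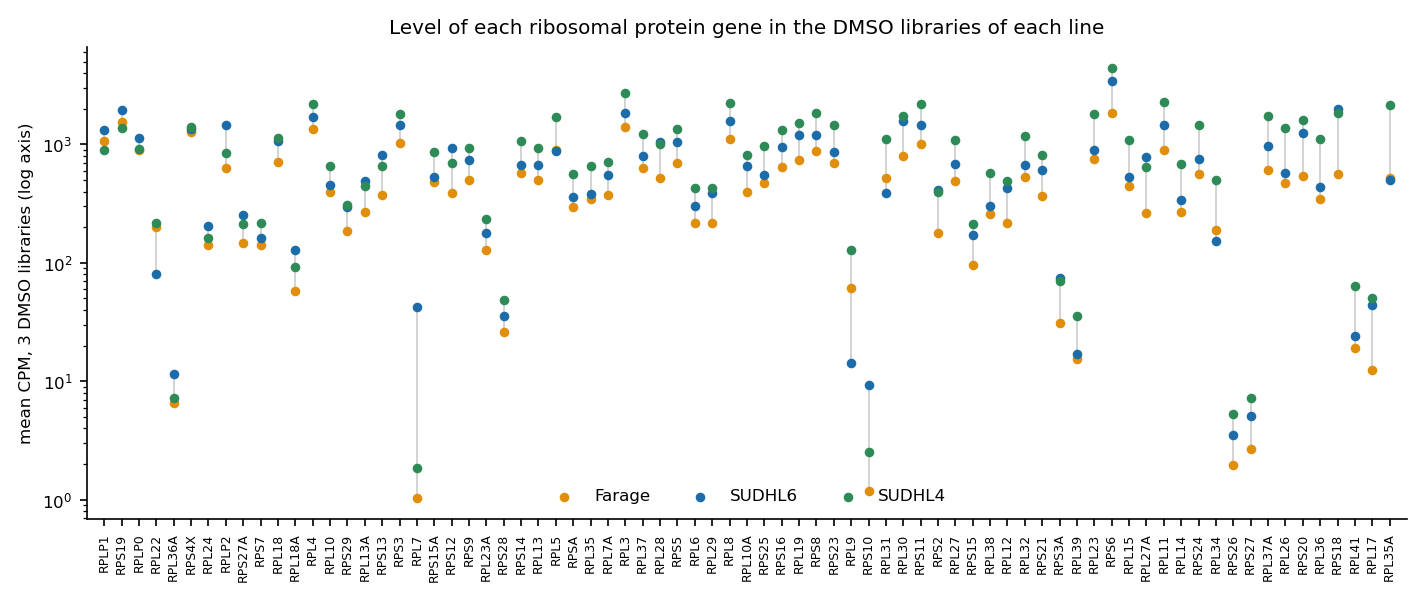
Mean CPM of 3 DMSO libraries (log axis) for 75 ribosomal protein genes in Farage (orange), SUDHL6 (blue) and SUDHL4 (green), ordered by the ratio of SUDHL4 to Farage; grey lines join the lowest and highest line of a gene. Farage points are lowest for 67 genes, and RPL9, RPL22, RPL31 and RPL34 are among those lowest in SUDHL6.

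Genes around the ribosome had larger median changes than its proteins. The lists were chosen with earlier results of these data known. All 6 tested paralogues, near relatives of single ribosomal proteins, were called lower in the mean of the lines, at a median log2 fold change of −1.10. RPL22L1 had 107, 71.5 and 77.2 CPM in treated and 204, 156 and 164 CPM in DMSO SUDHL6 libraries, 66.6, 65.5 and 68.0 and 110, 134 and 119 CPM in Farage, and 160, 176 and 145 and 464, 428 and 427 CPM in SUDHL4. RPL22L1 was lower in every treated library of each line (−1.11 ± 0.08, adjusted p = 6.12e-10). RPS27L, a p53-responsive relative of RPS27, changed by −1.21 ± 0.07 (adjusted p = 5.4e-11), RPL26L1 by −1.08 ± 0.08 (adjusted p = 2.74e-09) and RPL39L by −1.27 ± 0.12 (adjusted p = 4.83e-08). RPL36AL and RPL7L1 were the other 2, named after their values were seen, at −0.42 and −0.29. After median-of-ratios scaling, and with edgeR and DESeq2, 5 of the 6 were called lower, against 44.4%, 40.1% and 40.6% of all genes. All 6 were called lower under the other alternatives run.

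Of 28 ribosome assembly factors 3 were called higher and 25 lower over the lines' mean, at a median of −0.64, against 30.1% and 53.8% of all genes. By line 2 were called higher and 23 lower in SUDHL6 (median −0.78), against 26.8% and 41.3% of all genes. In Farage 4 and 14 were called (−0.29), against 25.4% and 46.5%, so the lower calls there were near the share of all genes. In SUDHL4 2 and 25 were called (−1.17), against 24.3% and 46.2%. DKC1, the pseudouridine synthase of ribosomal RNA, changed by −1.41 ± 0.05 (adjusted p = 3.15e-13), LTV1, of small subunit maturation, by −1.42 ± 0.05 (adjusted p = 7.54e-13), BYSL by −1.53 ± 0.06 (adjusted p = 1.15e-12) and TSR1 by −1.13 ± 0.05 (adjusted p = 1.93e-12). Of 7 dedicated chaperones of ribosomal proteins 1 was called higher and 5 lower in the mean, at a median of −0.72, against 30.1% and 53.8% of all genes. HEATR3, which escorts RPL5, changed by −2.28 ± 0.08 (adjusted p = 2.87e-13), PDCD2L by −2.18 ± 0.10 (adjusted p = 6.38e-12), BCCIP, which accompanies RPL23, by −0.72 ± 0.04 (adjusted p = 1.22e-10) and GRWD1, which accompanies RPL3, by −0.58 ± 0.06 (adjusted p = 4.37e-08). TSR2, the chaperone of RPS26, was the one called higher, at 0.28 ± 0.04 (adjusted p = 1.15e-05). Of the assembly factors SBDS, which frees the large subunit for translation, RIOK2 and LSG1 were the 3 called higher, at 0.75, 0.36 and 0.14. These 4 genes are named after their values were seen.

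Of 17 genes with TOP mRNAs outside the ribosome 2 were called higher and 4 lower in the mean, at a median of −0.08, against 30.1% and 53.8% of all genes. By line 1 was called higher and 8 lower in SUDHL6 (median −0.21), 0 and 1 in Farage (−0.06) and 5 and 1 in SUDHL4 (0.06). The shares of all genes were 26.8% and 41.3% in SUDHL6, 25.4% and 46.5% in Farage and 24.3% and 46.2% in SUDHL4. HNRNPA1 (−0.48 ± 0.06, adjusted p = 8.29e-07) and NAP1L1 (−0.21 ± 0.06, adjusted p = 0.00484) were among those called lower, and TPT1 (0.31 ± 0.07, adjusted p = 0.000567) and EIF3H (0.17 ± 0.04, adjusted p = 0.000914) were called higher. After median-of-ratios scaling 7 of the 17 were called higher and 1 lower in the mean, against 39.4% and 44.4% of all genes. Of FAU and GNB2L1, which encode ribosomal proteins and whose symbols fall outside the naming rule, GNB2L1 was called lower in the mean (−0.12 ± 0.04, adjusted p = 0.0124), and both were called higher in the mean after median-of-ratios scaling. GNB2L1 had 1244, 1108 and 1289 CPM in treated and 1887, 1734 and 1735 CPM in DMSO SUDHL6 libraries, and 2669, 2873 and 2689 CPM in treated and 2261, 2337 and 2415 CPM in DMSO SUDHL4 libraries. With deposited CPM it was called lower in SUDHL6 (−0.56 ± 0.07, adjusted p = 4.4e-06) and higher in SUDHL4 (0.23 ± 0.07, adjusted p = 0.00958), with no overlap in either. Of 13 regulators of ribosomal protein synthesis 4 were called higher and 8 lower in the mean, near the 30.1% and 53.8% of all genes. MYC, an activator of ribosome genes, had 115, 126 and 134 CPM in treated and 350, 361 and 318 CPM in DMSO SUDHL6 libraries, 141, 134 and 168 and 175, 189 and 169 CPM in Farage, and 25.8, 27.2 and 26.8 and 404, 409 and 325 CPM in SUDHL4. All treated values were below all DMSO values, and the changes were −1.45 ± 0.10 in SUDHL6, −0.27 ± 0.10 in Farage and −3.78 ± 0.10 in SUDHL4, a difference of 3.505 between Farage and SUDHL4 (adjusted p = 7.53e-11). In the mean MYC changed by −1.83 ± 0.06 (adjusted p = 1.83e-13), and TSC2 by −1.26 ± 0.07 (adjusted p = 9.42e-11), while its partner TSC1, in a complex that restrains mTOR, changed by 1.66 ± 0.09 (adjusted p = 4.88e-11). ZNF598, a sensor of collided ribosomes, changed by −0.98 ± 0.07 (adjusted p = 1.48e-09).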

How the data were processed

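Per the labels' protocols a TruSeq RNA kit was used for the sequencing libraries. The authors deposited CPM values per gene, reads scaled to a common library total, with reads aligned to hg19 by STAR per the submitters' processing notes; the label of 1 sample names Rsubread, and RefSeq appears in the names of the deposited files. Not given in the sources used here: tool versions, annotation release, strand setting and the counting of reads with several matches. The deposited CPM values were whole multiples of 1 read in 100% of cases within a tolerance of 0.01, and the listed genes made up 74.6 to 80.7% of the CPM divisor.

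Tests used limma 3.58.1 with a mean trend in R 4.3.3 on log2(CPM + 1), for 12769 genes at 1 CPM or more in at least 3 libraries, with 6 group means, 12 residual degrees of freedom and Benjamini-Hochberg adjustment over all genes at 0.05. A fold change on this scale understates the change of low genes. Each gene had 1 spread, fitted over all 18 libraries, so its SE was the same in each line. Alternatives were other pseudocounts, filters and scalings, edgeR 4.0.16 and DESeq2 1.42.0 on recovered reads, single lines, a replicate term, and each library left out. In SUDHL6 the deviations of same-numbered libraries correlated across genes at 0.425, 0.488 and 0.632, so the numbers pair the samples there; in Farage (0.168, −0.128 and −0.189) and SUDHL4 (−0.054, 0.034 and −0.073) they did not.

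The genes and lists were chosen with earlier results of these data known. The genes named are RPLP0, RPLP1, RPLP2, RPL5, RPL11, RPSA, RPS6, RPS27A and RPL41, the largest called changes in the mean of the lines (6 per direction) and in each line (4 per direction), the called response differences of smallest p (3 per pair of lines), the largest called DMSO differences (4 per direction) and up to 4 called genes of each other list. The measure of shared sequence, the fit without both SUDHL6 replicate 3 libraries and the one without genes at least 99% shared were chosen after seeing the data. Shared sequence was counted in GENCODE release 29 and start sites were read from RefSeq on GRCh38.p14. Results of a few genes are not reported here. Only the limma fit without a replicate term was run on simulated data. Those data had equal numbers of genes raised and lowered and no effect of the replicate number, unlike the libraries here. No conclusion is drawn from that run. Intervals from a count of 0 cover counting error only.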

Additional observations from a re-analysis of the deposited data

Results flagged for a closer look

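The response to 79-6.1085 differed between lines, by a limma test of the difference itself with adjustment over all genes, for these genes. RPS26 had a log2 fold change higher by 0.90 in Farage than in SUDHL4 (adjusted p = 0.00101) and by 0.68 in SUDHL6 than in SUDHL4 (adjusted p = 0.00838). RPL17 had one lower by −0.49 in Farage than in SUDHL4 (adjusted p = 0.00666) and by −0.57 in SUDHL6 than in SUDHL4 (adjusted p = 0.00278). RPL28 differed by −0.30 between Farage and SUDHL6 (adjusted p = 0.0432) and by −0.32 between Farage and SUDHL4 (adjusted p = 0.0315). Between Farage and SUDHL4, RPL8 differed by −0.36 (adjusted p = 0.0351), RPLP1 by −0.46 (adjusted p = 0.0355), RPL36A by 0.46 (adjusted p = 0.0363) and RPLP2 by −0.35 (adjusted p = 0.0425). The coding sequences of RPS26, RPL17 and RPL36A are fully shared with other genes, and the part of this in the differences was not tested.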

How the results depend on the processing

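With median-of-ratios scaling, edgeR and DESeq2, in that order, the genes called higher numbered 11, 16 and 16 in SUDHL6, 7, 6 and 12 in Farage, 31, 37 and 37 in SUDHL4 and 36, 38 and 38 in the mean of the lines. Those called lower numbered 2, 1 and 1 in SUDHL6, 1 each in Farage, 2 each in SUDHL4 and 3 each in the mean. Among all genes tested, 33.1, 34.4 and 34.0% were called higher in SUDHL6, 33.6, 33.85 and 34.6% in Farage and 34.3, 35.9 and 35.7% in SUDHL4. Called lower were 34.8, 33.8 and 34.2% in SUDHL6, 37.2, 37.9 and 37.5% in Farage and 36.1, 35.6 and 36.2% in SUDHL4. For the mean these shares were 39.4, 39.1 and 39.35% higher and 44.4, 40.1 and 40.6% lower. The median log2 fold change of the ribosomal protein genes became 0.13, 0.14 and 0.15 in Farage, 0.33, 0.36 and 0.34 in SUDHL4 and 0.19, 0.21 and 0.21 in the mean. The response difference of Farage and SUDHL6 was called for 0 genes in each, and that of SUDHL6 and SUDHL4 for 4 with DESeq2. The sign turned for RPL17 in SUDHL4 (0.057, 0.082 and 0.070), for RPL41 in SUDHL4 (0.078, 0.10 and 0.093), for RPL35 in SUDHL4 with edgeR (0.0056) and for RPS6 in the mean with edgeR (0.19) and DESeq2 (0.18). CPM rescaled to the listed genes gave 3 genes lower in SUDHL4 and 7 lower in the mean, against 45.2% and 51.8% of all genes. This rescaling also gave 1 gene higher in Farage than in SUDHL4 with DMSO. By its construction it raised the summed CPM to 69990 in treated and 68670 in DMSO SUDHL6 cells, 44410 and 45930 in Farage, and 94410 and 89700 in SUDHL4. After median-of-ratios scaling the sums were 37810 in treated Farage cells, and 87170 in treated and 68280 in DMSO SUDHL4 cells. The sum with ribosomal proteins outside the naming rule added was left out.

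The replicate block gave 5 genes higher and 22 lower in SUDHL6, 2 and 21 in Farage, 9 and 8 in SUDHL4 and 10 and 29 in the mean, and response differences of 5 between Farage and SUDHL6, 16 between Farage and SUDHL4 and 12 between SUDHL6 and SUDHL4. Of all genes it called 28.2% higher and 43.4% lower in SUDHL6, 26.5% and 48.7% in Farage and 25.8% and 48.1% in SUDHL4. In the mean it called 31.0% and 55.2% of all genes. Shares of all genes with a called response difference are not given for this fit or the other alternatives in this section. In Farage and SUDHL4 the libraries share only a number. The block fit gives no comparison of DMSO levels between lines. Fits of only the compared lines gave 0 higher and 2 lower in SUDHL6, 2 and 21 in Farage, 11 and 10 in SUDHL4, response differences of 0 between Farage and SUDHL6 and 21 between Farage and SUDHL4, and 2 genes higher in Farage than in SUDHL4 with DMSO. Of all genes the fits of single lines called 20.3% higher and 29.9% lower in SUDHL6, 29.9% and 52.7% in Farage and 27.5% and 50.2% in SUDHL4. With no filter 3 ribosomal protein genes were higher in SUDHL4 and 6 lower in the mean, against 18.1% and 39.0% of all genes. Response differences were then 0 between Farage and SUDHL6 and 2 between Farage and SUDHL4. With a mean CPM of at least 5 the response of SUDHL6 and SUDHL4 differed for 1 gene. Without both SUDHL6 replicate 3 libraries, an alternative chosen after seeing the data, 11 were lower in SUDHL6, 2 higher and 11 lower in Farage, 6 differed between Farage and SUDHL6 and 6 between SUDHL6 and SUDHL4, and with DMSO 5 were higher in Farage than in SUDHL6 and 1 than in SUDHL4. Of all genes this fit called 42.6% lower in SUDHL6, and 27.25% higher and 49.4% lower in Farage. Without genes at least 99% shared, also chosen then, fewer genes remained to be counted: 4 lower in SUDHL6, 0 higher in Farage, 1 lower in SUDHL4, 2 higher and 7 lower in the mean, and response differences of 4 between Farage and SUDHL4 and 0 between SUDHL6 and SUDHL4.

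With each library left out in turn, the genes called higher ranged from 2 to 8 in SUDHL6, 0 to 2 in Farage, 1 to 6 in SUDHL4 and 5 to 9 in the mean. Those called lower ranged from 3 to 23 in SUDHL6, 3 to 11 in Farage, 2 to 6 in SUDHL4 and 6 to 20 in the mean. The most lower calls in SUDHL6 and in the mean came without SUDHL6 treated replicate 3; the fewest came without SUDHL6 DMSO replicate 3 in SUDHL6 and without Farage DMSO replicate 2 in the mean. Response differences ranged from 0 to 5 between Farage and SUDHL6, 2 to 9 between Farage and SUDHL4 and 2 to 7 between SUDHL6 and SUDHL4. With DMSO 0 to 1 genes were higher in Farage than in SUDHL4. The median log2 fold change ranged from −0.20 to 0.12 in SUDHL6, −0.16 to −0.048 in Farage, −0.02 to 0.08 in SUDHL4 and −0.10 to 0.01 in the mean. In these fits 25.2 to 27.4% of all genes were called higher and 38.6 to 42.4% lower in SUDHL6. The shares were 23.75 to 26.25% and 43.5 to 48.15% in Farage, and 22.6 to 25.3% and 43.3 to 47.7% in SUDHL4. In the mean they were 29.5 to 30.55% and 52.7 to 54.5%. Except where stated, the cause of these shifts was not tested. Genes listed at a few CPM are limited by depth, least precise in SUDHL6 replicate 3.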
